A study of Mus musculus with 7 samples.

Results

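Perineuronal nets are mesh-like coats of extracellular matrix around the cell body and dendrites of certain neurons. This account covers 10 genes of that matrix in mouse hippocampus, chosen by name: the lecticans Acan, Bcan, Ncan and Vcan, the link proteins Hapln1, Hapln2 and Hapln4, the tenascins Tnr and Tnc, and the hyaluronan synthase Has3. All 10 were found among the 21965 genes of the deposited table and all 10 passed the filter on low counts, which 14417 genes passed. NIHHL (4 libraries) stands for noise-induced hidden hearing loss in mice, a model in which noise harms the inner ear without a lasting loss of hearing threshold. Per the labels these mice were exposed to noise of 110 dB for 2 h, and per the series' design text hippocampus was taken 1 month after induction. Control (3 libraries) is given in the labels as a blank control, with hippocampus taken at the same time. The sources used here give no strain, age, sex or genotype. Since no label ties libraries to single animals, p-values cover only the spread between samples, which may be technical. Total counts ran from 14871376 to 24515146 per library.

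The net is built on hyaluronan, a sugar polymer that hyaluronan synthases spin out at the cell surface. Lecticans, proteoglycans that carry chondroitin sulfate chains, bind hyaluronan at one end, link proteins lock that bond, and tenascins tie the other ends of the lecticans together. In the hippocampus, nets surround many parvalbumin interneurons and the pyramidal cells of CA2, and they are known for limiting synaptic plasticity in the adult brain. Neurons, astrocytes and the oligodendrocyte lineage all contribute matrix genes.

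The 10 genes spanned a wide range of levels. Per kilobase of the longest coding transcript, Bcan (brevican, the most abundant lectican of the adult brain) had the highest median over the 7 libraries, 42.6 CPM per kilobase, with a range of 41.5 to 47.6. Ncan (neurocan) followed at 27.7, Hapln4 at 23.7 and Tnr (tenascin-R) at 18.7 CPM per kilobase. The ranges of Ncan and Hapln4 overlapped, as did those of Hapln4 and Tnr, so the order of these neighbours was not resolved by the spread between libraries. Hapln1 at 5.06 and Hapln2 at 4.96 CPM per kilobase also overlapped each other, and both lay below all of the first 4 genes in every library. Vcan (versican) stood at 2.00 and Tnc (tenascin-C) at 1.39 CPM per kilobase. Has3 at 0.646 and Acan (aggrecan, the lectican most used to mark nets) at 0.601 CPM per kilobase were the lowest of the 10 and overlapped, and the range of Has3 also reached that of Tnc. The order was the same with the summed length of all annotated exons in place of the longest coding transcript. Vcan has 9 annotated transcripts, and its level per kilobase depends on which isoform is assumed.

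**Figure D1:**
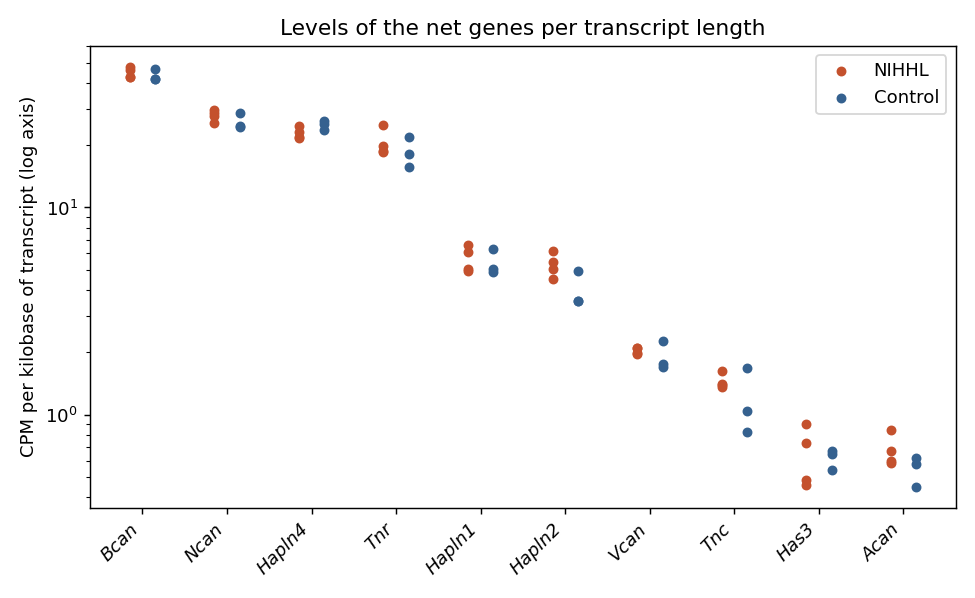
Level of each net gene per kilobase of its longest coding transcript, in CPM per kilobase on a log axis, with 1 point per library (NIHHL left of Control for each gene), ordered by the median of the 7 libraries. Bcan lies at 41.5 to 47.6 and Acan at 0.451 to 0.844 CPM per kilobase.

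Within the lecticans, Bcan made up 59.3 ± 1.82% of the summed per-kilobase level in NIHHL and 60.4 ± 0.539% in Control (mean ± SD, n = 4 and n = 3). Ncan made up 37.1 ± 1.68% in NIHHL and 36.1 ± 0.356% in Control. Vcan held 2.71 ± 0.141% in NIHHL and 2.66 ± 0.220% in Control, and Acan 0.895 ± 0.143% in NIHHL and 0.769 ± 0.127% in Control. For each of the 4 lecticans the libraries of the groups overlapped.

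The genes lie on several chromosomes in the GRCm38 annotation (GENCODE M21), often beside a partner. Bcan and Hapln2 are neighbouring coding genes on chromosome 3, 21519 bases apart, Vcan and Hapln1 neighbour each other on chromosome 13, and Ncan and Hapln4 lie 2222 bases apart on chromosome 8, where Has3 also lies. Acan on chromosome 7 has the link protein gene Hapln3 as its neighbour at a distance of 2 bases. Tnr is on chromosome 1 and Tnc on chromosome 4. Promoter windows, 250 bases before to 50 bases after a gene's start, were found for 8 of the 10 genes in RefSeq (GRCm38.p6). Those of Acan, Hapln1, Hapln2 and Tnr are shown because Hapln1 and Tnr varied together across libraries, Hapln2 had the smallest p of the members, and Acan stands at the other end in its content of CG. Each is written 5′ to 3′ on the gene's strand, and capitals mark every CG, a motif that reads the same on both strands.
Acan, chr7:79052976-79053275, + strand: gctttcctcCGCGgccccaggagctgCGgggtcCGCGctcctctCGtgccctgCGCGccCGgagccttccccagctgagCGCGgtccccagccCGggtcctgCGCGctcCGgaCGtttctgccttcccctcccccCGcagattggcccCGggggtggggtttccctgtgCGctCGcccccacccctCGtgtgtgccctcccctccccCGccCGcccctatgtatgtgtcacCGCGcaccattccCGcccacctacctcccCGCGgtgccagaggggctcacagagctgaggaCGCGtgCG
Hapln1, chr13:89540386-89540685, + strand: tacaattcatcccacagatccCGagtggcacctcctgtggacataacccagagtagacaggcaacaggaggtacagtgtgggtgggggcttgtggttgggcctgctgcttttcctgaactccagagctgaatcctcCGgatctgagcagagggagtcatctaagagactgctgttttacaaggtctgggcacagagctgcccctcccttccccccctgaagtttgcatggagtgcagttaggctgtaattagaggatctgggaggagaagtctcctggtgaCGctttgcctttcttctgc
Hapln2, chr3:88027462-88027761, - strand: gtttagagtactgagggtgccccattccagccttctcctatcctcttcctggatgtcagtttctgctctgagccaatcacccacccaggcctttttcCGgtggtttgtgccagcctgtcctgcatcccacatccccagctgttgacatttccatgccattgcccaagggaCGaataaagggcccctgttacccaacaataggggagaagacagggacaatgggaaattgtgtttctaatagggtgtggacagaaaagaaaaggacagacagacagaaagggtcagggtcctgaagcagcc
Tnr, chr1:159523519-159523818, + strand: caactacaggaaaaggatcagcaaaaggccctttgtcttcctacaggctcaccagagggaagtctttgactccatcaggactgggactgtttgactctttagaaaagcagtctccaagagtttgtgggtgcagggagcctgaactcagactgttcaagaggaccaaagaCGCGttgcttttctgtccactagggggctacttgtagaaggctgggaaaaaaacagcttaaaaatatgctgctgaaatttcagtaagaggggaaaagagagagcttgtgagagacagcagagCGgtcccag
The Acan window held 31 CG, and 89.3% of the 32544 windows in the table held fewer. The Hapln1 and Tnr windows held 3 CG each and the Hapln2 window 2, and 69.0% and 76.9% of all windows held more. At least 1 CG was present in 94.6% of all windows and the median was 7. Among the other members' windows, Bcan had 24, Vcan 12 and Ncan 9 CG.

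The comparison of NIHHL with Control asks which of these genes differ in the hippocampus after noise. With edgeR's quasi-likelihood test, no member passed a Benjamini-Hochberg adjusted p under 0.05 over all 14417 genes, where 0% of all genes were called. The adjusted p was 0.996 for each of the 10. By unadjusted p under 0.05, 1 member passed (Hapln2), beside 3.63% of all genes tested. DESeq2's Wald test called 0 members, beside 0.0220% of the genes it tested, and also had only Hapln2 at an unadjusted p under 0.05. The log2 fold change was above 0 for 9 of the 10 members, beside 49.9% of all genes, and the median was 0.10 for the members and -0.00045 for all genes tested. Without Control replicate 2 and NIHHL replicate 4, the extremes of the transcript length trend described further on, 6 of the 10 were above 0 and the median was 0.036. These libraries also had the lowest and the highest summed level of the members, so leaving both out lowers the difference in that sum by construction. With all 7 libraries and a correction for that trend, 9 of the 10 were above 0 and the median was 0.07. For no member did the libraries of the groups separate completely, as they did for 5.20% of all genes (2.84% with NIHHL above and 2.37% with NIHHL below).

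**Figure D2:**
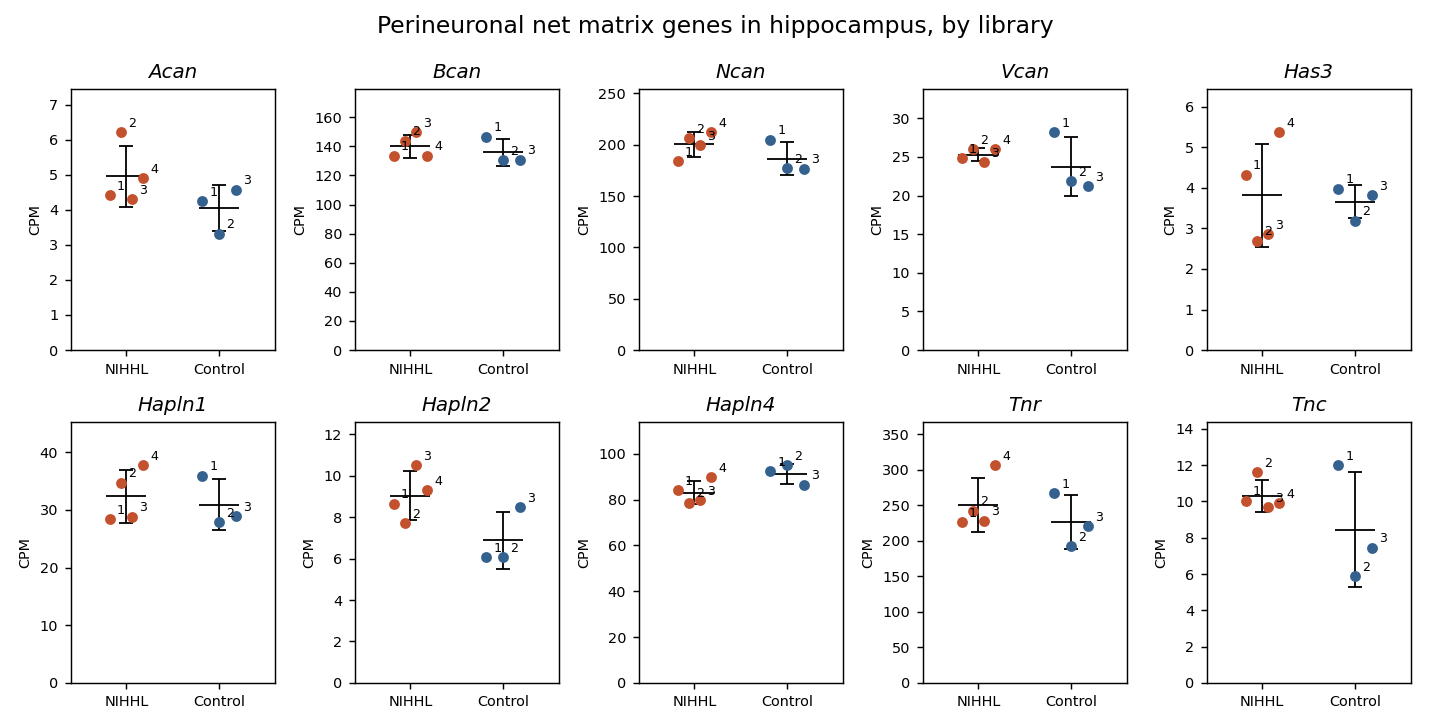
CPM of each net gene in every library, with the y axis from 0, NIHHL left of Control, and each point labelled with its replicate number. The horizontal mark and bar give the mean and SD (n = 4 and n = 3), and the groups overlap in all 10 panels.

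Among the lecticans, the abundant members differed little between the groups. Bcan stood at 133, 144, 150 and 134 CPM in NIHHL replicates 1 to 4, against 147, 130 and 131 CPM in Control replicates 1 to 3. Only NIHHL replicate 3 lay above all Control libraries. Bcan had a log2 fold change of 0.04 (SE 0.07), with a 95% interval from 0.923-fold to 1.15-fold. Ncan, which is made by neurons and astrocytes and binds neural cell adhesion molecules, stood at 184, 206, 199 and 212 CPM in NIHHL and at 205, 177 and 177 CPM in Control. NIHHL replicates 2 and 4 were the highest, close above Control replicate 1. The log2 fold change of Ncan was 0.11 (SE 0.08), with an interval from 0.956-fold to 1.21-fold. For both genes these intervals leave out changes of the size of a doubling or halving.

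Vcan, a large lectican of oligodendrocyte precursors that also lies at nodes of Ranvier, stood at 24.8, 25.98, 24.3 and 26.01 CPM in NIHHL against 28.2, 21.9 and 21.2 CPM in Control. All NIHHL libraries lay inside the Control range, which Control replicate 1 extended upwards. Vcan had a log2 fold change of 0.09 (SE 0.11, 95% interval -0.14 to 0.33). Markers of oligodendrocyte precursors, such as the growth factor receptor Pdgfra, summed to between 304 and 344 CPM in NIHHL and between 291 and 315 CPM in Control over 8 genes. Vcan per 1000 CPM of these markers was 77.4 ± 6.34 in NIHHL and 77.8 ± 10.6 in Control (SD). In bulk tissue, fewer cells of a type and less RNA per cell cannot be told apart.

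Acan rested on few reads, between 78 and 108 counts in NIHHL libraries and between 63 and 97 in Control libraries. It stood at 4.42, 6.21, 4.29 and 4.90 CPM in NIHHL and at 4.25, 3.31 and 4.57 CPM in Control. NIHHL replicates 2 and 4 lay above all Control libraries and replicates 1 and 3 among them. Acan had a log2 fold change of 0.29 (SE 0.19, 95% interval -0.12 to 0.70, edgeR p = 0.142 before adjustment), and an exact permutation test (two-sided, log2 CPM, 35 splits) gave p = 0.229, where the smallest possible is 0.0286. The interval is wide, from 0.923-fold to 1.63-fold, so differences between these bounds could not be told from none at this depth and replication. Leaving out Control replicate 2 gave Acan a log2 fold change of 0.16, and leaving out NIHHL replicate 2 gave 0.17. The highest value with 1 library left out was 0.40, without Control replicate 3.

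Has3, which makes hyaluronan, was the least evenly expressed of the 10 in NIHHL. It stood at 4.33, 2.70, 2.86 and 5.37 CPM in NIHHL against 3.98, 3.19 and 3.82 CPM in Control. NIHHL replicates 1 and 4 lay above every Control library and replicates 2 and 3 below every one, so the means, 3.81 ± 1.27 in NIHHL and 3.66 ± 0.418 in Control (SD), were close. For Has3 the log2 fold change was 0.07 (SE 0.25, 95% interval -0.47 to 0.60), and its sign turned in 5 of 16 alternative settings. Has3 shares 352 exon bases with Chtf8 on the opposite strand, and the sources used here do not say whether the counting used strand. The other synthases were near the floor of detection: Has1 had 1 to 13 counts per NIHHL library and 3 to 14 per Control library, and Has2 1 to 5 and 4 to 11, and neither was tested.

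The link proteins held both ends of the members' differences. Hapln2, which sits at nodes of Ranvier with versican and is made by oligodendrocytes, stood at 8.65, 7.70, 10.5 and 9.32 CPM in NIHHL against 6.07, 6.08 and 8.49 CPM in Control. NIHHL replicates 1, 3 and 4 lay above all Control libraries, and replicate 2 lay under Control replicate 3. The group means were 9.05 ± 1.18 CPM in NIHHL and 6.88 ± 1.39 CPM in Control libraries, a ratio of 1.32. The log2 fold change was 0.39 (SE 0.16, 95% interval 0.04 to 0.75) with an edgeR p of 0.0334 before and 0.996 after adjustment, rank 342 of 14417, and the exact permutation p was 0.114. The adjusted p stayed above 0.05 in all 16 alternative settings, the lowest being 0.740, and the unadjusted p was 0.05 or more in 5 of them. These 5 left out Control replicate 1 (log2 fold change 0.31), Control replicate 2 (0.30), NIHHL replicate 3 (0.31), NIHHL replicate 4 (0.38), or Control replicate 2 together with NIHHL replicate 4 (0.29), and leaving out Control replicate 3 gave 0.57.

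Of 10 markers of mature oligodendrocytes, 9 had a log2 fold change above 0, with a median of 0.19, and 0 were called (edgeR, lowest adjusted p = 0.996). By unadjusted p under 0.05 (edgeR), 5 of the 10 passed, all higher in NIHHL, beside 3.63% of all genes tested. The myelin glycoprotein gene Mog stood at 103 ± 5.31 CPM in NIHHL and 87.8 ± 9.64 CPM in Control. The 10 markers summed to 8398 to 9875 CPM in NIHHL and 7293 to 9142 CPM in Control, and Control replicates 1 and 2, the lowest for Hapln2, were also the lowest here. Per 1000 CPM of these markers, Hapln2 was at 0.942, 0.896, 1.06 and 1.11 CPM in NIHHL and at 0.832, 0.813 and 0.929 CPM in Control, and the groups overlapped. The part of oligodendrocyte content in the Hapln2 values was not tested.

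**Figure D3:**
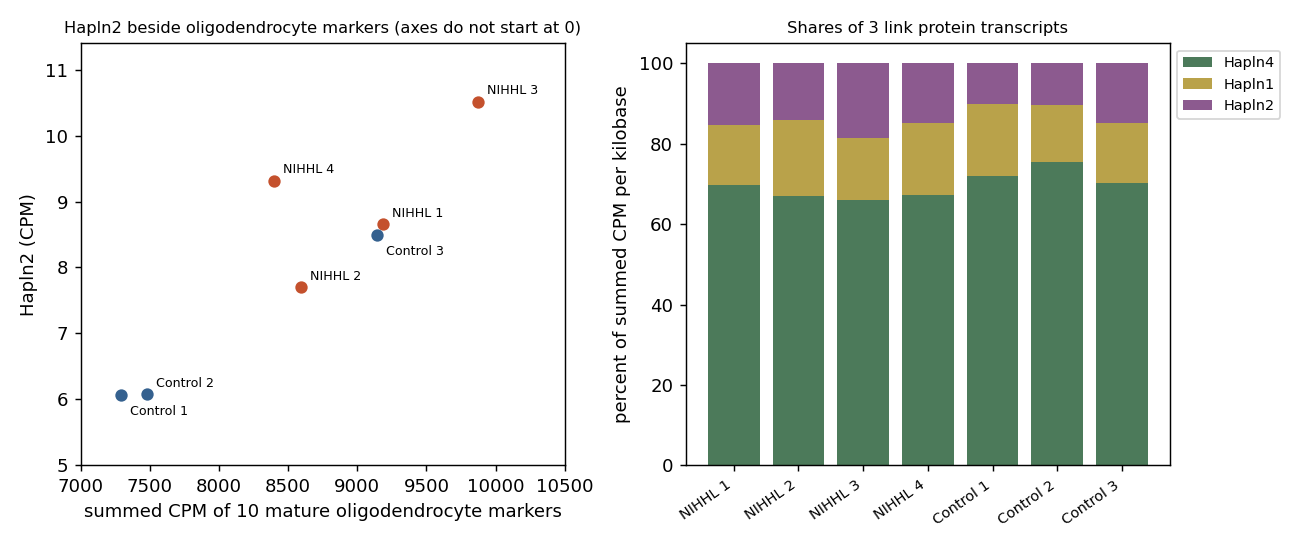
Left, Hapln2 (CPM) against the summed CPM of 10 mature oligodendrocyte markers in each library (NIHHL in red, Control in blue). Right, shares of Hapln4, Hapln1 and Hapln2 in their summed CPM per kilobase, NIHHL libraries left of Control; Hapln4 lies between 66.1% and 69.7% in NIHHL and between 70.3% and 75.6% in Control.

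Hapln4, a link protein of neurons that binds brevican, was the only member with a lower mean in NIHHL. It stood at 84.0, 78.7, 79.7 and 89.9 CPM in NIHHL against 92.4, 95.03 and 86.5 CPM in Control. NIHHL replicates 1, 2 and 3 lay below every Control library, and replicate 4 lay among them. Hapln4 had a log2 fold change of -0.14 (SE 0.07, 95% interval -0.29 to 0.02), with an edgeR p of 0.0819 before and 0.996 after adjustment and an exact permutation p of 0.114. Its sign held in all 16 alternative settings, between -0.17 and -0.10. Hapln1, the link protein whose loss in mice weakens nets, stood at 28.4, 34.7, 28.8 and 37.7 CPM in NIHHL against 35.9, 27.8 and 28.9 CPM in Control. High libraries occurred in both groups, and the log2 fold change was 0.07 (SE 0.13, 95% interval -0.20 to 0.35).

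The 3 link protein transcripts can be set against each other within a library. Hapln4 made up 69.7%, 67.1%, 66.1% and 67.2% of their summed per-kilobase level in NIHHL, against 72.0%, 75.6% and 70.3% in Control. Every NIHHL library lay below every Control library, the only such separation among 10 shares and ratios examined. By CPM, 5.20% of all genes tested separated in this way in either direction, and the share was not tested. The share of Hapln2 was 15.7 ± 2.02% in NIHHL and 11.7 ± 2.61% in Control, and that of Hapln1 16.8 ± 1.95% in NIHHL and 15.7 ± 1.97% in Control (SD), both overlapping. Because the shares sum to 100%, a higher Hapln2 lowers the share of Hapln4 by itself. The ratio of Hapln1 to Hapln4, which leaves Hapln2 out, was 0.249 ± 0.0310 in NIHHL and 0.216 ± 0.0308 in Control and overlapped.

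Of the tenascins, Tnr, which binds lecticans and links them in adult nets, stood at 226, 242, 228 and 306 CPM in NIHHL against 267, 192 and 221 CPM in Control. NIHHL replicate 4 was the highest and Control replicate 2 the lowest. The log2 fold change of Tnr was 0.15 (SE 0.13, 95% interval -0.15 to 0.44). It was 0.037 without NIHHL replicate 4, 0.044 without Control replicate 2 and -0.066 without both. Leaving out the highest NIHHL and the lowest Control library lowers this value by construction. Tnc, a tenascin of astrocytes and of the developing or injured brain, stood at 10.03, 11.6, 9.69 and 9.91 CPM in NIHHL against 12.001, 5.87 and 7.45 CPM in Control. The NIHHL libraries were close together and all lay within the wide Control range. The log2 fold change was 0.31 (SE 0.21, 95% interval -0.15 to 0.77), 0.63 without Control replicate 1 and 0.10 without Control replicate 2. All 10 astrocyte markers had a log2 fold change above 0 (median 0.08), and none was called. By unadjusted p under 0.05 (edgeR) 1 of them passed, beside 3.63% of all genes tested. Summed astrocyte markers ran from 5682 to 6221 CPM in NIHHL and from 5061 to 6281 CPM in Control, with Control replicate 1 highest and Control replicate 2 lowest, as for Tnc. Per 1000 CPM of these markers, Tnc was at 1.74 ± 0.106 CPM in NIHHL and 1.45 ± 0.402 CPM in Control (SD), and the groups overlapped. This ratio was 1.91 in Control replicate 1 and 1.16 in Control replicate 2. The part of astrocyte content in the Tnc values was not tested. Tnr and Tnc share 443 and 176 exon bases with annotated transcripts of the opposite strand.

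**Figure D4:**
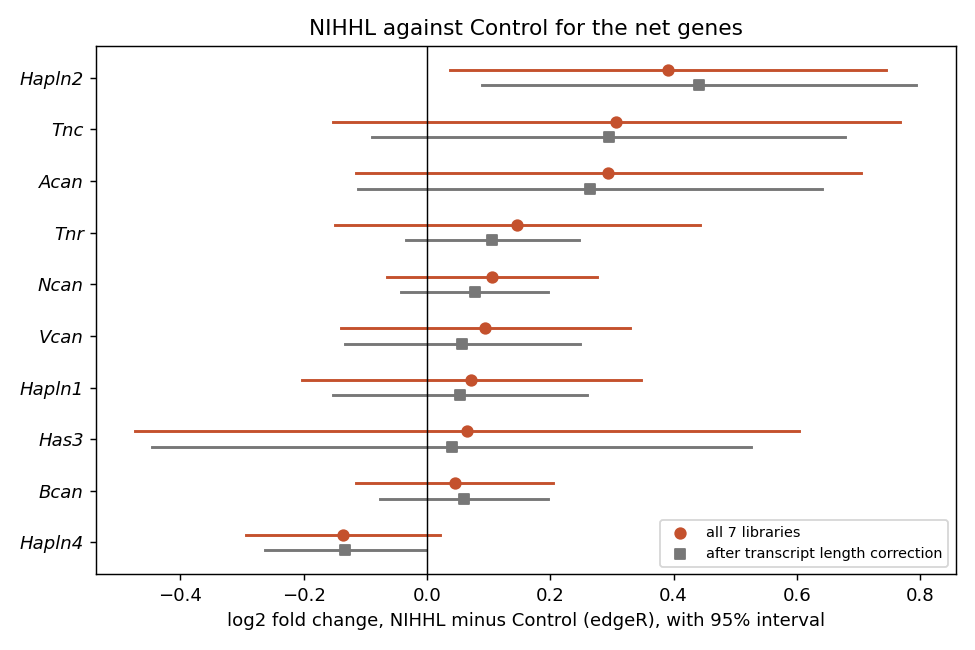
Log2 fold change of each net gene, NIHHL minus Control, with its 95% interval from edgeR, for all 7 libraries (red circles) and after a correction for transcript length (grey squares). Without the correction the interval of Hapln2 alone lies on one side of 0, at 0.04 to 0.75. With it those of Hapln2 (0.09 to 0.79) and Hapln4 (-0.26 to -0.0021) do. All intervals are before any adjustment for the number of genes.

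Members also varied among themselves across libraries. Of 45 pairs, 35 had a Pearson r above 0 in log2 CPM over the 7 libraries. Hapln1 and Tnr had r = 0.90 (exact permutation p = 0.000794, adjusted p = 0.0357 over 45 pairs) and Spearman's rho = 0.89 (p = 0.0123, adjusted p = 0.185). Without the 2 libraries farthest from the median of Hapln1, r was 0.70. No other pair passed by Pearson's r and no pair passed by Spearman's rho after adjustment. The next pairs were Ncan with Tnr (r = 0.85, adjusted p = 0.0952, exact permutation test; rho = 0.93, adjusted p = 0.185; r = 0.76 without the 2 farthest) and Vcan with Tnc (r = 0.90, adjusted p = 0.0952; rho = 0.86, adjusted p = 0.214; r = 0.95 without the 2 farthest).

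A trend with transcript length ran through the libraries, and the members differ widely in length. Tnr at 12202 bases and Vcan at 12427 are longer than 98.8% and 98.9% of tested genes, and Acan, Ncan and Tnc exceed 91.0% or more of them, whereas Hapln4, Bcan and Hapln2 exceed 57.8%, 47.9% and 16.6%. The Spearman correlation over 8382 genes between length and a library's log2 deviation from the mean of all libraries was -0.19, 0.10, -0.38 and 0.62 in NIHHL replicates 1 to 4. It was 0.52, -0.68 and -0.11 in Control replicates 1 to 3. Genes are not independent replicates, so these values describe the libraries. NIHHL replicate 4 and Control replicate 1, which favoured long transcripts, had the highest summed level of the 10 genes, 835 and 801 CPM, and Control replicate 2 had the lowest, 663 CPM.

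After a smooth length trend was removed from each library, the spread of Tnr over the 7 libraries fell to an SD of 0.10 in log2 CPM, against 0.21 before, and that of Ncan to 0.07, against 0.11. The SD of Bcan was 0.0853 after and 0.0833 before the correction, and that of Hapln2 0.33 after and 0.30 before. The r of Hapln1 with Tnr was 0.75, that of Ncan with Tnr 0.42 and that of Vcan with Tnc 0.58 after the correction. Of the 45 pairs, 31 then had an r above 0, against 35 before. The log2 fold changes kept their signs, with 0.44 (SE 0.16) for Hapln2, -0.13 (SE 0.06) for Hapln4 and 0.11 (SE 0.06) for Tnr, and the median over the members was 0.07. Hapln2 and Hapln4 then had unadjusted p-values of 0.0183 and 0.0469 by edgeR, with adjusted p of 0.912 and 0.917. No member was called.

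**Figure D5:**
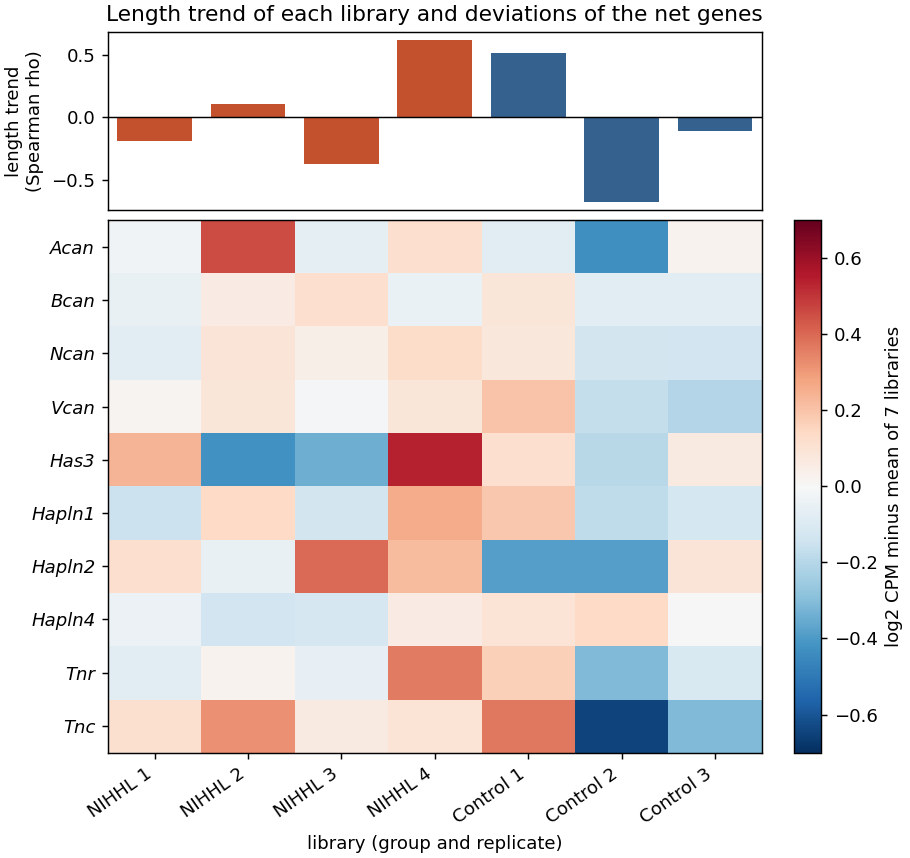
Top, Spearman correlation of each library's log2 deviation with transcript length, NIHHL libraries in red left of Control libraries in blue. Bottom, log2 CPM of each net gene minus its mean over the 7 libraries; Control 2 is lowest for Acan, Tnr and Tnc (-0.43, -0.31 and -0.65) and NIHHL 4 highest for Tnr (0.36).

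Other genes of the net were described from lists of partners, enzymes and receptors. None of their tested members was called (edgeR, lowest adjusted p = 0.996 in each list). Of 21 tested genes that build and sulfate chondroitin chains, 16 had a log2 fold change above 0 and the median was 0.04. The sulfotransferase Chst15 was at 42.6 ± 2.54 CPM in NIHHL and 37.9 ± 6.16 CPM in Control, and B3gat3, an enzyme of the linker that holds the chains, at 82.8 ± 8.65 CPM in NIHHL and 95.4 ± 12.6 CPM in Control. Of 11 tested genes for hyaluronan synthesis, breakdown and receptors, 8 were above 0 (median 0.08). Hexa, a subunit of the lysosomal hexosaminidase, was at 47.4 ± 3.34 CPM in NIHHL and 42.7 ± 1.15 CPM in Control. Cemip, a hyaluronan-degrading protein, was at 31.2 ± 2.58 CPM in NIHHL and 28.6 ± 2.97 CPM in Control.

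The proteases that cut lecticans and tenascins were split evenly, 7 above and 7 below 0 (median 0.0059). The metalloproteases Adamts20 and Adamts1 were at 14.0 ± 2.23 and 20.1 ± 3.68 CPM in NIHHL and at 11.8 ± 1.63 and 17.7 ± 1.66 CPM in Control. Of 4 tested protease inhibitors, Timp3, a matrix-bound inhibitor of metalloproteases, stood at 153, 125, 136 and 147 CPM in NIHHL against 121, 124 and 119 CPM in Control, with a log2 fold change of 0.21 (SE 0.08). Reck, a membrane-anchored inhibitor, was at 9.77 ± 1.37 CPM in NIHHL and 8.72 ± 0.553 CPM in Control. Among 10 lectican partners and brain proteoglycans, 5 lay above and 5 below 0. Crtac1, a cartilage acidic protein also made in brain, is in this list without being an established lectican partner. It stood at 60.9, 61.3, 68.7 and 63.1 CPM in NIHHL against 73.9, 84.5 and 69.8 CPM in Control. The log2 fold change of Crtac1 was -0.26 (SE 0.08), with an edgeR p of 0.00826 before and 0.996 after adjustment. Fbln1, a fibulin that binds lecticans, was at 11.49 ± 2.61 CPM in NIHHL and 9.02 ± 0.678 CPM in Control. Every NIHHL library lay on one side of every Control library for Hexa, Timp3, Fbln1 and Crtac1. These are 4 of the 78 tested genes of the partner lists, or 5.13%, beside 5.20% of all genes.

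Receptors and ligands held by the net were also split, 9 above and 9 below 0 (median 0.0054). The receptor phosphatase Ptprf was at 67.1 ± 5.02 CPM in NIHHL and 60.2 ± 2.47 CPM in Control. Nptx2, a pentraxin that gathers AMPA receptors on parvalbumin interneurons, was at 14.5 ± 1.34 CPM in NIHHL and 16.8 ± 1.09 CPM in Control. Hapln3, the remaining link protein, was at 1.48 ± 0.249 CPM in NIHHL and 1.39 ± 0.383 CPM in Control.

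Markers of the cells that nets enclose and of tissue that a dissection can include are given beside these values. The hippocampal genes Prox1, of granule cells, and Wfs1, of CA1, were expressed at 139 ± 24.8 and 114 ± 10.9 CPM in NIHHL and at 117 ± 24.8 and 106 ± 35.3 CPM in Control. Of 8 markers of hippocampal principal neurons, 3 lay above and 5 below 0 (median -0.11), with sums of 5516 to 5932 CPM in NIHHL and 5016 to 6270 CPM in Control, and none was called. Of 9 tested parvalbumin interneuron markers 8 lay below 0 (median -0.10) and none was called. Some of them, such as Gad1 and Gad2, are expressed in inhibitory neurons in general. Pvalb itself stood at 36.1, 27.4, 33.0 and 25.7 CPM in NIHHL against 31.6, 34.8 and 40.6 CPM in Control, overlapping, with a log2 fold change of -0.22 (SE 0.13). Syt2, a synaptotagmin of these interneurons, was at 31.6 ± 7.81 CPM in NIHHL and 34.1 ± 13.4 CPM in Control, and the 9 markers summed to 830 to 882 CPM in NIHHL and 797 to 933 CPM in Control. Of 8 markers of CA2 pyramidal cells, 5 lay above and 3 below 0 (median 0.05), with sums of 447 to 519 CPM in NIHHL and 467 to 580 CPM in Control. Rgs14, a signalling regulator of CA2, was at 82.7 ± 8.45 CPM in NIHHL and 83.3 ± 6.79 CPM in Control, and Pcp4, a calmodulin regulator, at 136 ± 24.7 CPM in NIHHL and 162 ± 37.3 CPM in Control. All 8 ependymal and all 8 choroid plexus markers lay above 0, with medians of 0.49 and 0.71, and none was called. The ependymal markers summed to 63.5 to 77.7 CPM in NIHHL and 36.7 to 61.1 CPM in Control, without overlap. Of all single genes tested, 5.20% had no overlap by CPM. By unadjusted p under 0.05 (edgeR), 6 of the 8 passed, all higher in NIHHL, beside 3.63% of all genes tested. The choroid plexus sum varied from 562 to 8473 CPM in NIHHL and from 97.4 to 6989 CPM in Control, and the markers of meningeal fibroblasts summed to 88.2 to 129 CPM in NIHHL and 88.6 to 124 CPM in Control. Microglia markers summed to 463 to 579 CPM in NIHHL and 491 to 523 CPM in Control, and endothelial markers to 172 to 179 CPM in NIHHL and 175 to 193 CPM in Control. Of 8 genes of the thalamus and neighbouring regions, 4 lay above and 4 below 0 (median 0.02), and they summed to 156 to 182 CPM in NIHHL and 156 to 179 CPM in Control. Tcf7l2 was at 4.97 ± 0.405 CPM in NIHHL and 3.47 ± 0.919 CPM in Control, and Slc17a6, a vesicular glutamate transporter, at 15.8 ± 4.06 CPM in NIHHL and 18.2 ± 8.20 CPM in Control. The part of these tissues in the values of the net genes was not tested.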

How the data were processed

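Poly(A) RNA of mouse hippocampus was sequenced in 7 libraries. The authors deposited expected counts (estimated counts per gene, not scaled to library size), per the file headers. Tools listed in the submitters' processing notes, with no role, are HISAT2, Bowtie2 2.2.8, DESeq2 and StringTie 1.3.1. The sources used here give neither build nor annotation. Counts were rounded, genes filtered with filterByExpr (minimum count 10), and libraries scaled by TMM. Group was the only term in edgeR's quasi-likelihood test (robust), with Benjamini-Hochberg adjustment over 14417 genes and a call at an adjusted p under 0.05. Log2 CPM used a prior count of 2. R 4.3.3, edgeR 4.0.16, limma 3.58.1 and DESeq2 1.42.0 were used, and the fits were tested on simulated data. Lengths came from GENCODE M21, matched by Ensembl ID for 99.8% of tested genes. The length correction was a lowess trend per library. The members, lists and tests were chosen with earlier results of these data known. Named genes were the 10 members, the 2 smallest p of each partner list and the first 2 genes of each marker list, of which some are given here only as list sums. Ratios to marker sums were chosen after the values were seen.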

Additional observations from a re-analysis of the deposited data

How the results depend on the processing

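No member was called in any of the 16 alternative settings, which changed the scaling, the filter on low counts, the tool, the length correction or the libraries. DESeq2 called 4 genes over the whole table (mt-Atp8, Hsd3b1, Akr1cl and Dnah6), and leaving out Control replicate 2 and NIHHL replicate 4 together gave 1 (Gcat); these were named after their values were seen, and the cause was not tested. Each other setting called 0 genes. With 1 library left out, the median of the members ran from 0.04 to 0.21, the lowest without Control replicate 2 and the highest without Control replicate 1, and it was 0.15 without NIHHL replicate 3. Acan, Bcan, Ncan, Vcan, Hapln2, Hapln4 and Tnc kept their sign in all 16 settings. Without Control replicate 2 and NIHHL replicate 4 together, Hapln1 was at -0.076, Tnr at -0.066 and Has3 at -0.23. For each of these genes they were the lowest Control and the highest NIHHL library, so leaving both out lowers the value by construction. With 1 library left out, Hapln1 ran from -0.0080 to 0.19 and Has3 from -0.14 to 0.20. The labels name no pairing of libraries by replicate number. Over all tested genes, deviations from the group means correlated at -0.45, -0.44 and 0.06 between same-numbered libraries. With few libraries and a length trend running through them, these values cannot show whether such libraries share a litter or batch. The setting with a replicate block also left out NIHHL replicate 4, which has no Control library of that number. There Hapln1 was at -0.0070 and Has3 at -0.17, 0 genes were called and the median was 0.07. Leaving out NIHHL replicate 4 without a block gave -0.0080 for Hapln1, -0.14 for Has3 and a median of 0.07. Acan and Has3 rest on 47 to 108 counts per library.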

Other observations

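Acan was set beside the summed level of 9 parvalbumin interneuron markers, a comparison chosen after the values were seen. Gad1 and Gad2, which are expressed in inhibitory neurons in general, held 352 and 148 CPM of that sum in NIHHL on average, and Pvalb 30.5 CPM. The sum therefore does not stand for parvalbumin cells alone. Per 1000 CPM of these markers it was at 5.14, 7.09, 5.17 and 5.55 CPM in NIHHL and at 4.55, 4.16 and 5.04 CPM in Control, so the groups did not overlap, by a narrow margin for NIHHL replicate 1. Of 4 such ratios it was the only one that separated, where 5.20% of all genes tested separated by CPM, and it was not tested.

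The 3 genes outside the members whose log2 CPM was most like the mean standardised log2 CPM of the members over the 7 libraries were Iqgap3 (Pearson r = 0.989), Btbd3 (0.989) and Kmt2c (0.987). They are the highest of all tested genes and carry no test.

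No NIHHL library stood far enough from the other 3 to pass Dixon's 95% critical value in any of 20 quantities examined, the levels of the 10 members and 10 shares and ratios.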
